A study of Mus musculus with 12 samples.

Results

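The 10 genes followed here desaturate and lengthen fatty acids in the endoplasmic reticulum of mouse liver: the desaturases Fads1, Fads2, Fads6 and Scd2, the elongases Elovl1, Elovl2, Elovl3 and Elovl5, and Hacd3 and Tecr, which complete the elongation cycle. They were chosen by name, with earlier results of these data known, and each was matched to 1 row of the count table through its Ensembl identifier. They are 10 of the 46078 genes listed. All 10 of 10 passed the filter on low counts, which left 13054 genes to test.

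A desaturase places a double bond in a fatty acyl chain, taking electrons from cytochrome b5 and its reductase. An elongase of the Elovl family carries out the first, condensing step of a cycle that adds carbons to the chain, and a ketoacyl reductase, a dehydratase such as Hacd3 and the enoyl reductase Tecr finish each turn. In liver, Fads2, Elovl5, Fads1 and Elovl2 act along the route that turns the essential dietary fatty acids into arachidonic and docosahexaenoic acid, while Elovl1 and Elovl3 mostly lengthen saturated and monounsaturated chains.

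The livers came from mice aged 21 weeks with diet-induced obesity, given as C57BL/6 in the labels and as C57BL/6J males raised on a high-fat diet in the study's methods. Every mouse had surgery. In the VSG group (n = 4) most of the stomach was removed by vertical sleeve gastrectomy, in the Sham-WM group (n = 4) a sham operation was followed by food restriction that held body weight at that of the VSG mice, and in the Sham-Ad lib group (n = 4) a sham operation was followed by unrestricted feeding. Tissue was collected after several hours without food, in mice of a single strain and sex that were obese before surgery. By then, the paper reports, the VSG and Sham-WM mice had lost weight to the level of chow-fed reference mice. Lean mice that had no surgery were not analysed here. The comparison of VSG with Sham-WM addresses which differences remain at matched weight, and the comparisons with Sham-Ad lib address each treatment against obesity left untreated. At matched weight the feeding still differed: Sham-WM mice were food-restricted, and the paper reports a greater cumulative food intake in VSG. Surgery and feeding cannot be told apart in that comparison.

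The libraries held between 15122520 and 19384076 counts on genes. Groups were assigned through the animal number, which the name of a library has in common with the title of a sample. A further label field links titles to libraries of other animals, and under that reading 0 of the 10 genes passed the test in any of the 3 comparisons. Over all 13054 genes, 0 passed under that reading in either comparison with Sham-Ad lib. The library names end in running numbers that form an unbroken block for each group; what the numbers stand for is not stated, and any effect that follows them and the treatment cannot be told apart. Liver identity was checked by 5 hepatocyte markers, whose summed level was 101300 to 123700 CPM (counts scaled to library size with TMM factors) in Sham-Ad lib, 120500 to 148800 CPM in Sham-WM and 78180 to 122500 CPM in VSG libraries. Markers of Kupffer cells, neutrophils and B and plasma cells were called higher in VSG. Over all tested genes, 15.0% were called higher and 11.9% lower in VSG against Sham-WM. In VSG against Sham-Ad lib these shares were 0.467% and 0.283%. The summed level of 5 Kupffer cell markers was 105.4 to 342 CPM in Sham-Ad lib, 98.7 to 175 CPM in Sham-WM and 363 to 1055 CPM in VSG, and 5 of 5 were higher in VSG than in Sham-WM and 2 of 5 than in Sham-Ad lib. That of 5 neutrophil markers was 0.379 to 10.9, 1.18 to 2.24 and 18.6 to 640 CPM in the same order, and 4 of the 4 that could be tested were higher in VSG than in each sham group. Of 5 B and plasma cell markers, with sums of 3.79 to 8.00, 4.00 to 6.63 and 9.84 to 21.4 CPM, 3 were higher in VSG than in Sham-WM and 1 than in Sham-Ad lib. None of these immune markers was at 0 in every library. In VSG against Sham-WM, 1 of 5 recruited macrophage and 1 of 2 tested T and NK cell markers were also higher, and 2 of 5 hepatocyte, 2 of 5 stellate cell and 1 of 5 endothelial cell markers were lower. Beside shares of 15.0% and 11.9% over all genes, such small counts alone do not show a change in these cells. The hepatocyte sum was 80760, 78180 and 88320 CPM in VSG libraries 1F, 8F and 11F, below every sham library, and 122500 CPM in 18F. Most of that sum was Alb, with means of 64000 CPM in VSG and 106100 CPM in Sham-WM. The means of Apoa1 and Cyp2e1 were higher in VSG than in Sham-WM. Of the adipocyte markers, Lep was at 0 in every library, and Adipoq, Plin1 and Retn had at most 1 count in any library. Their sum with Cfd was 5.33 to 10.3 CPM in Sham-Ad lib, 0.113 to 0.764 CPM in Sham-WM and 0.171 to 1.79 CPM in VSG. That sum was mostly Cfd, the only marker of this set that could be tested. Cfd was lower in both treated groups than in Sham-Ad lib, and 1 gene does not show a change in adipocytes. The part of these cells in the values below was not tested, and in whole liver fewer cells of a type and less RNA per cell cannot be told apart.

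Promoter sequence is shown for a few of these genes because they share a pathway and several had lower RNA in VSG than in Sham-WM. RefSeq windows (GRCm38.p6), from 250 bases before to 50 bases after a gene's start, were present for 7 of the 10 genes; Fads1, Scd2 and Elovl3 had none. Each was searched on both strands for the NF-Y box CCAAT, the E-box CACGTG and a sterol regulatory element written as TCANNCCAC, and the matched letters are in capitals, an ATTGG being a CCAAT on the other strand. Elovl5 (chr9:77917115-77917414 on the plus strand) and Fads2 (chr19:10101454-10101753 on the minus strand) are the first elongase and the first desaturase of the polyunsaturated route, and Tecr (chr8:83594442-83594741 on the minus strand) and Hacd3 (chr9:65021668-65021967 on the minus strand) are cycle enzymes of which the former differed between VSG and Sham-WM and the latter did not pass that test.
Elovl5: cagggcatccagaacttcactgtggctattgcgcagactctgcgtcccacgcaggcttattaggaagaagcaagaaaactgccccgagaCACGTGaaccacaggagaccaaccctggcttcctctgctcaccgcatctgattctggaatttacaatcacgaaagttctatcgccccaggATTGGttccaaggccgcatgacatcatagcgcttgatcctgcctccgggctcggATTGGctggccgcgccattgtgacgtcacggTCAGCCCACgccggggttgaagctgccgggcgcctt
Fads2: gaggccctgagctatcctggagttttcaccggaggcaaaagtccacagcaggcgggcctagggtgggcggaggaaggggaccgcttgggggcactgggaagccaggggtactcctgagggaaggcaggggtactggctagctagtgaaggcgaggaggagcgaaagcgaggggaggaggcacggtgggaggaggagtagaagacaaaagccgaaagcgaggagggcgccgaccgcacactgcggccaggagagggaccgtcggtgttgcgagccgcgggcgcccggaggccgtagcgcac
Tecr: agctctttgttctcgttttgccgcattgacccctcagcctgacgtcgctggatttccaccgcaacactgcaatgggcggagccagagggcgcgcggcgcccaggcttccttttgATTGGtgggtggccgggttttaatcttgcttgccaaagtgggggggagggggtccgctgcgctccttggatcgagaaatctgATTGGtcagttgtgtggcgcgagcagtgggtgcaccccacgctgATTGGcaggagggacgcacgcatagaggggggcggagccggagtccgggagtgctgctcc
Hacd3: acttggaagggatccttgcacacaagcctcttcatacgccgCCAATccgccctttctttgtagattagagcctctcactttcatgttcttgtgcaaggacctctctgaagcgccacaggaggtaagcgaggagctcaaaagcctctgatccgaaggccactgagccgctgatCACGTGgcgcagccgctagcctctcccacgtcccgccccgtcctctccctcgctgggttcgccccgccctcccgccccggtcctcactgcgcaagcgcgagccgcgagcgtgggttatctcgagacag
The Elovl5 window held all 3 motifs: an E-box starting 161 bases before the start site, CCAAT boxes on the other strand at 71 and 17 bases before it, and TCAGCCCAC beginning 14 bases after it. Tecr held 3 CCAAT boxes, Hacd3 held 1 CCAAT box and 1 E-box, and Elovl1 held 1 CCAAT box. The windows of Fads2, Fads6 and Elovl2 held none of the 3 motifs, which says only that these letters are not in these windows. Over all 32851 promoters in the table, 37.4% held CCAAT, 7.15% held CACGTG and 4.18% held TCANNCCAC.

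Across genes, levels were compared as CPM per kilobase of exon. In Sham-Ad lib livers the polyunsaturated route stood highest: Fads2 had 239 ± 52.0 CPM per kilobase (mean ± SD, n = 4), Elovl2 227 ± 45.8, Fads1 198 ± 36.2 and Elovl5 146 ± 49.1. Neighbours in this order had overlapping libraries. Hacd3 at 82.3 ± 7.44 and Tecr at 76.5 ± 7.18 CPM per kilobase followed, then Fads6 at 28.8 ± 1.41, Elovl3 at 24.2 ± 6.03, Elovl1 at 12.6 ± 1.18 and Scd2 at 0.839 ± 0.266. The libraries of Tecr and Fads6, of Elovl3 and Elovl1, and of Elovl1 and Scd2 did not overlap.

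Some genes took other places in the treated groups. In Sham-WM, Elovl3 came next after the polyunsaturated route at 111.1 ± 38.9 CPM per kilobase, overlapping Tecr at 86.4 ± 13.1, below Elovl2 at 266 ± 75.4, Fads2 at 250 ± 81.5, Elovl5 at 228 ± 44.3 and Fads1 at 226 ± 59.3. In VSG, the genes of the polyunsaturated route stood close to the cycle enzymes: Elovl2 had 131 ± 36.0 CPM per kilobase, Fads1 107.5 ± 28.3, Fads2 80.6 ± 33.5, Elovl5 77.5 ± 17.8 and Hacd3 76.2 ± 11.1, each overlapping the next. Scd2 was last in every group, with 1.17 ± 0.169 CPM per kilobase in Sham-WM and 1.41 ± 0.546 in VSG. These orders depend on the length used: per kilobase of the longest transcript, Fads1 came first in all 3 groups, at 314 CPM per kilobase in Sham-WM, 275 in Sham-Ad lib and 149.5 in VSG, and Tecr, at 149, stood above Elovl3, at 117, in Sham-WM.

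**Figure D1:**
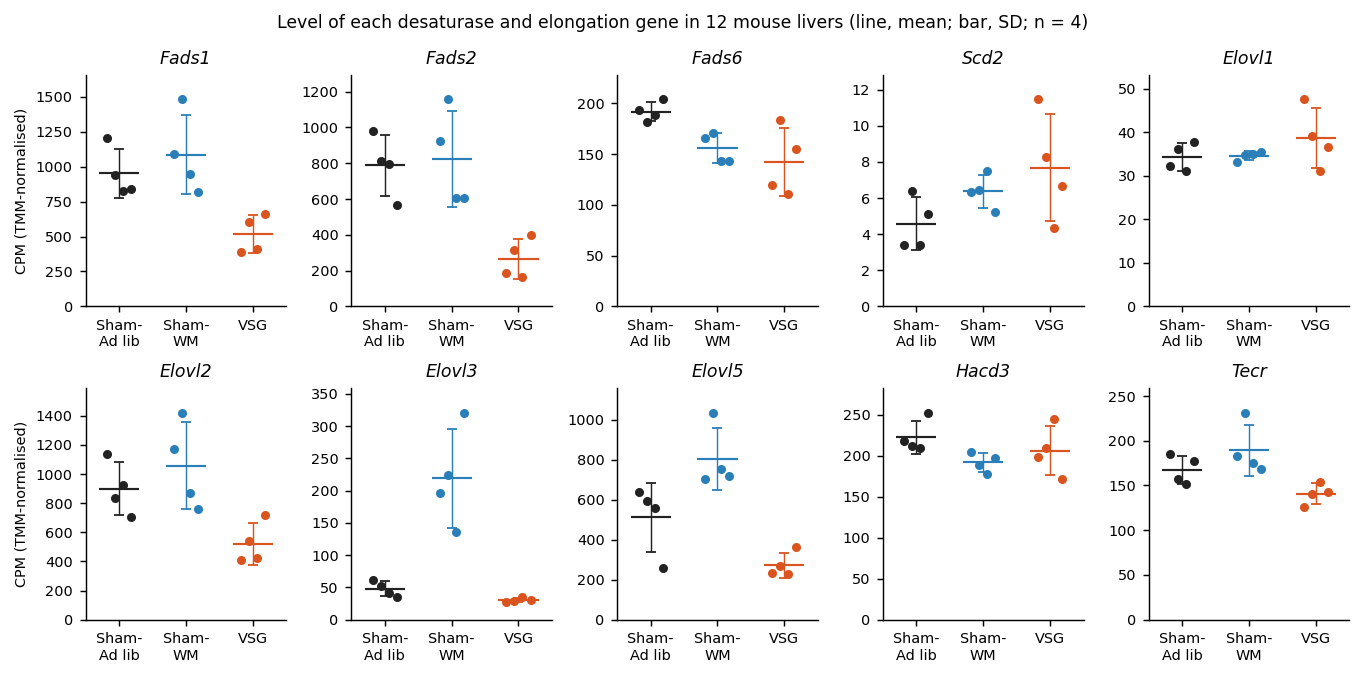
Level of each of the 10 genes in CPM (vertical axes, linear from 0) in 12 libraries, 4 per group, with the group mean as a line and the SD as a bar. The VSG points of Fads1 and Fads2 lie below every sham point, and the Sham-WM points of Elovl3, at 136 to 321 CPM, lie above all others.

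VSG livers differed from Sham-WM livers in much of the polyunsaturated route. Fads1, Fads2, Elovl2, Elovl5, Elovl3 and Tecr were lower in VSG, by between 1.34-fold for Tecr and 7.13-fold for Elovl3, while Fads6, Scd2, Elovl1 and Hacd3 did not pass the test. A gene was called at an adjusted p (edgeR, Benjamini-Hochberg) under 0.05 over all 13054 genes. By this rule 6 of the 10 genes were called lower and 0 higher, where 11.9% of all tested genes were called lower and 15.0% higher. Because the 10 genes were chosen with earlier results of these data known, these shares are set side by side as a description. The VSG and Sham-WM libraries did not overlap for the same 6 genes, against 26.2% of all tested genes. The median log2 fold change was -0.72 over the 10 genes and 0.029 over all genes. With 2 factors of unwanted variation estimated from the replicates (RUVs), 1 of the 10 genes, Elovl3, was still called. How many of all genes were called with RUVs factors in this comparison is not given here. Whether the drop is particular to the 10 genes was not tested.

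Against Sham-Ad lib, 1 gene was lower in VSG. Fads2 was called, and 0 of the 10 genes were called higher, where 0.283% of all tested genes were called lower and 0.467% higher. Fads1, Fads2 and Elovl3 had every VSG library below every Sham-Ad lib library, making 3 of 10 genes without overlap against 9.21% of all genes. At an unadjusted p under 0.05, 7 of the 10 genes passed, as did 24.1% of all genes. The median log2 fold change was -0.53 over the 10 genes and 0.028 over all genes. This comparison moved with the method: DESeq2 called Fads1, Fads2, Elovl2 and Elovl5, and when libraries were left out in turn edgeR called between 0 and 4 of the 10 genes, with 4 called without VSG library 18F and Fads2 called only without 4F, 8F or 18F. Calls over all genes moved too: 98 of 13054 in the main fit, 1202 of 13054 by DESeq2 and 1089 of 13287 without library 18F.

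Sham-WM and Sham-Ad lib livers differed in a single gene of the 10, Elovl3, which was 4.58-fold higher in Sham-WM. It was called in a background of 3.53% of all tested genes called higher and 3.45% called lower. Libraries did not overlap for 4 of the 10 genes, against 17.6% of all genes: Elovl3 and Elovl5 were above, and Fads6 and Hacd3 below, the Sham-Ad lib range, though only Elovl3 passed the test. The median log2 fold change was 0.18 over the 10 genes and 0.00079 over all genes. The 3 comparisons share libraries in pairs, so their values are given side by side and not as independent results.

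**Figure D2:**
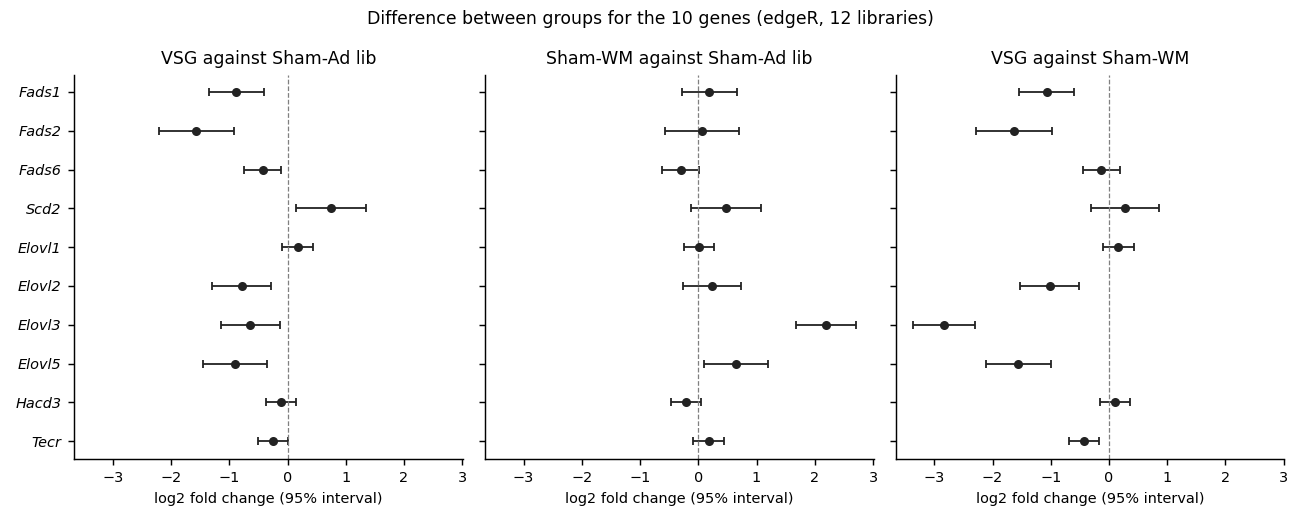
Log2 fold change (horizontal axis) of each of the 10 genes in the 3 comparisons, from edgeR's fit of 12 libraries, with a 95% interval that is not adjusted for the number of genes. Elovl3 has the widest departure from 0 in both comparisons with Sham-WM, at 2.20 and -2.83.

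Fads2 (chr19:10062765-10101746 on mm10, minus strand) encodes the desaturase of the first step of polyunsaturated fatty acid synthesis. It measured 982, 812, 793 and 565 CPM in the Sham-Ad lib libraries 3F, 4F, 6F and 10F. In the Sham-WM libraries 2F, 9F, 15F and 16F it measured 926, 1157, 607 and 604 CPM, and in the VSG libraries 1F, 8F, 11F and 18F it measured 189, 314, 162 and 398 CPM. Every VSG library lay below the lowest sham library, while the sham groups overlapped. Fads2 fell by 1.57 on the log2 scale in VSG against Sham-Ad lib (SE 0.30, adjusted p = 0.0442, edgeR), a 2.97-fold lower level, and by 1.63 against Sham-WM (SE 0.30, adjusted p = 0.00274), a 3.10-fold lower level. Between the sham groups the log2 fold change was 0.064, with a 95% interval from -0.57 to 0.70.

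Fads1 (chr19:10182888-10196877, plus strand), on the same chromosome beside Fads2, encodes the desaturase that makes arachidonic and eicosapentaenoic acid. Its levels were 1203, 938, 827 and 842 CPM in Sham-Ad lib, 1092, 1482, 951 and 822 CPM in Sham-WM, and 390, 601, 414 and 664 CPM in VSG, in the library order given for Fads2. All 4 VSG libraries lay below all 8 sham libraries. Fads1 fell by 1.07 on the log2 scale in VSG against Sham-WM (SE 0.22, adjusted p = 0.00493, edgeR). Against Sham-Ad lib the log2 fold change of -0.88 (SE 0.22, 95% interval from -1.36 to -0.40) had an adjusted p of 0.0608 and was not called.

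The ratio of Fads2 to Fads1 was lowest in the VSG libraries. This ratio, picked for display after the values had been seen and so given with no test, was 0.816, 0.865, 0.960 and 0.671 Fads2 per Fads1 count in the Sham-Ad lib libraries. It was 0.848, 0.781, 0.639 and 0.734 in Sham-WM and 0.484, 0.523, 0.391 and 0.599 in VSG. The highest VSG ratio, that of library 18F, was below the lowest sham ratio, that of 15F. Library 18F, with the highest Fads1 and Fads2 of the VSG group, also had the lowest summed Kupffer cell (363 CPM) and neutrophil (18.6 CPM) markers of that group. Library 11F, with the lowest Fads2, had 525 and 101 CPM and library 1F had 1055 and 640 CPM. Library 8F, next after 18F in Fads1 and Fads2, had 542 and 251.5 CPM, more than 11F, so the libraries did not follow one order. Summed hepatocyte markers were 122500 CPM in 18F, 88320 CPM in 11F, 80760 CPM in 1F and 78180 CPM in 8F, which is not the order of Fads1 or Fads2 either. The part of any of these cell types in these levels was not tested.

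**Figure D3:**
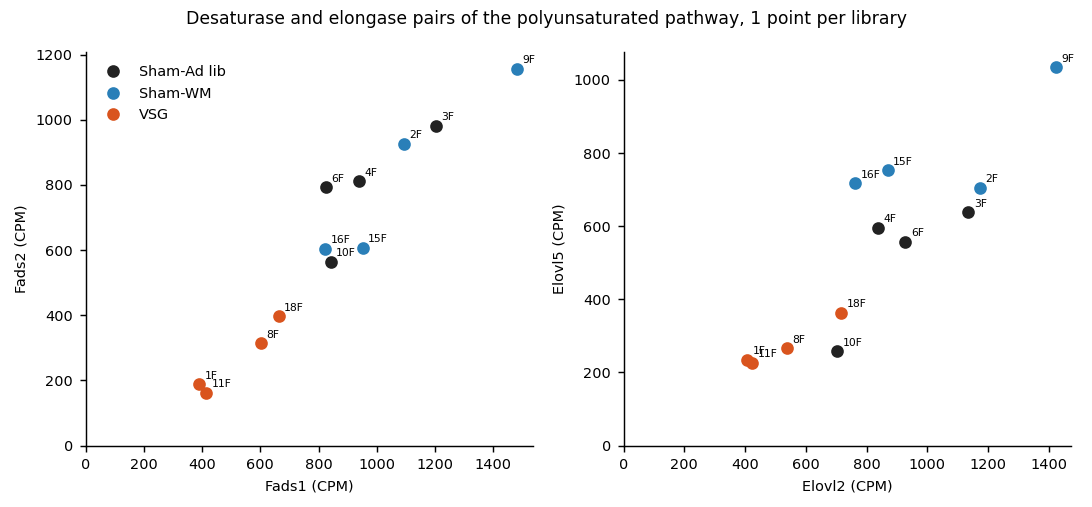
Fads2 against Fads1 (left) and Elovl5 against Elovl2 (right), both axes in CPM from 0, with 1 labelled point per library. The VSG libraries lie nearest the origin in the left panel, where Fads2 reaches at most 398 CPM, and Sham-Ad lib library 10F lies among the VSG libraries for Elovl5.

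Fads6 (chr11:115279622-115297663, minus strand) is a less studied member of the desaturase family. It had 182 to 204 CPM in Sham-Ad lib, 143 to 171 CPM in Sham-WM and 110.6 to 183 CPM in VSG. Both treated groups had lower means than Sham-Ad lib, with VSG library 8F inside the Sham-Ad lib range. The log2 fold changes against Sham-Ad lib were -0.43 in VSG (SE 0.15, adjusted p = 0.110, edgeR) and -0.30 in Sham-WM (SE 0.15, adjusted p = 0.257), and neither was called.

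Scd2 (chr19:44293674-44306864, plus strand) encodes a stearoyl-CoA desaturase, which makes monounsaturated fatty acids, and is better known from brain and young animals than from adult liver. The libraries held only 58 to 192 counts of it. Its levels were 3.404, 6.39, 3.41 and 5.14 CPM in Sham-Ad lib, 6.32, 6.45, 7.50 and 5.23 CPM in Sham-WM and 11.5, 8.27, 4.37 and 6.65 CPM in VSG. The groups overlapped in every comparison. Its log2 fold change was 0.75 in VSG against Sham-Ad lib (SE 0.28, 95% interval from 0.15 to 1.35, adjusted p = 0.133, edgeR). The highest value was in VSG library 1F, which also had the highest Kupffer cell and neutrophil marker sums of the 12 libraries, and their part in the Scd2 level was not tested. Reads of Scd2 may also be shared with its close paralog Scd1, whose group means lay between 2240 and 9058 CPM, so the level of Scd2 is uncertain.

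Elovl5 (chr9:77917364-77984519, plus strand), whose promoter is shown above, encodes the elongase that follows Fads2 in the polyunsaturated route. It measured 638, 596, 557 and 258 CPM in Sham-Ad lib, 706, 1035, 753 and 718 CPM in Sham-WM, and 235, 267, 227 and 363 CPM in VSG. All Sham-WM libraries lay above all others, and Sham-Ad lib library 10F lay within the VSG range. The VSG level was 2.94-fold lower than that of Sham-WM (log2 fold change -1.56, SE 0.26, adjusted p = 0.00173, edgeR). The differences from Sham-Ad lib were -0.91 on the log2 scale in VSG (SE 0.25, adjusted p = 0.0720) and 0.65 in Sham-WM (SE 0.25, adjusted p = 0.149), and neither was called.

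Elovl2 (chr13:41182381-41220405, minus strand) encodes the elongase of the last elongation steps before docosahexaenoic acid. Its levels were 1135, 837, 928 and 702 CPM in Sham-Ad lib, 1173, 1422, 869 and 763 CPM in Sham-WM and 407, 538, 422 and 716 CPM in VSG. VSG and Sham-WM did not overlap, while VSG library 18F reached into the Sham-Ad lib range. Elovl2 was 2.03-fold lower in VSG than in Sham-WM (log2 fold change -1.02, SE 0.23, adjusted p = 0.00793, edgeR), and its log2 fold change of -0.79 against Sham-Ad lib (SE 0.23, adjusted p = 0.0813) was not called.

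Elovl1 (chr4:118428093-118432953, plus strand), an elongase of very long saturated chains found in most tissues, had 31.1 to 37.8 CPM in Sham-Ad lib, 33.1 to 35.6 CPM in Sham-WM and 31.1 to 47.6 CPM in VSG. The 3 groups overlapped. Its log2 fold changes were 0.17 in VSG against Sham-Ad lib (95% interval from -0.092 to 0.44), 0.013 in Sham-WM against Sham-Ad lib (from -0.25 to 0.28) and 0.16 in VSG against Sham-WM (from -0.10 to 0.42), none of which was called. Its exons overlap those of Cdc20, on the opposite strand, by 53 bases.

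Elovl3 (chr19:46131897-46135694, plus strand), an elongase whose liver RNA is known to be higher in male mice and to follow the daily cycle, showed the widest range. It measured 62.0, 53.0, 40.8 and 35.6 CPM in Sham-Ad lib, 197, 224, 136 and 321 CPM in Sham-WM and 27.5, 29.1, 35.4 and 31.1 CPM in VSG. No groups overlapped, although the highest VSG library, 11F, was only just below the lowest Sham-Ad lib library, 10F. Elovl3 rose by 2.20 on the log2 scale in Sham-WM against Sham-Ad lib (SE 0.24, adjusted p = 0.00020, edgeR) and was 7.13-fold lower in VSG than in Sham-WM (log2 fold change -2.83, SE 0.24, adjusted p = 3.1e-05). Its log2 fold change of -0.64 in VSG against Sham-Ad lib (SE 0.23, adjusted p = 0.125) was not called. Its exons overlap those of Pitx3, on the opposite strand, by 10 bases.

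Genes of the circadian clock moved in the same group as Elovl3. Of 11 clock genes tested, 3 were higher and 4 lower in Sham-WM than in Sham-Ad lib, 4 were higher and 4 lower in VSG than in Sham-WM, and 0 were called in VSG against Sham-Ad lib. Over all genes, the shares called higher and lower were 3.53% and 3.45%, 15.0% and 11.9%, and 0.467% and 0.283% in that order. With shares as small as the last, 0 calls do not show that clock genes were alike in VSG and Sham-Ad lib. Arntl, the clock activator also called Bmal1, had 0.558 to 1.61 CPM in Sham-Ad lib, 11.8 to 31.1 CPM in Sham-WM and 0.452 to 1.14 CPM in VSG. Dbp, an output gene of the clock, had 110.9 to 166 CPM in Sham-Ad lib, 7.60 to 23.1 CPM in Sham-WM and 98.5 to 153 CPM in VSG. Sham-WM libraries did not overlap the others for either gene. Of 9 male-biased liver genes, 0 were called in any of the 3 comparisons, though some shifts were wide. Their median log2 fold change was -0.287 in Sham-WM against Sham-Ad lib and 0.266 in VSG against Sham-WM. The widest shift was that of Cyp4a12b in Sham-WM against Sham-Ad lib (-1.925, SE 0.563, adjusted p = 0.0576, edgeR), where only Slco1a1 of the list had a positive value, 0.222. The part of the clock genes and of the male-biased genes in the Elovl3 difference, and in the other differences between VSG and Sham-WM, was not tested.

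**Figure D4:**
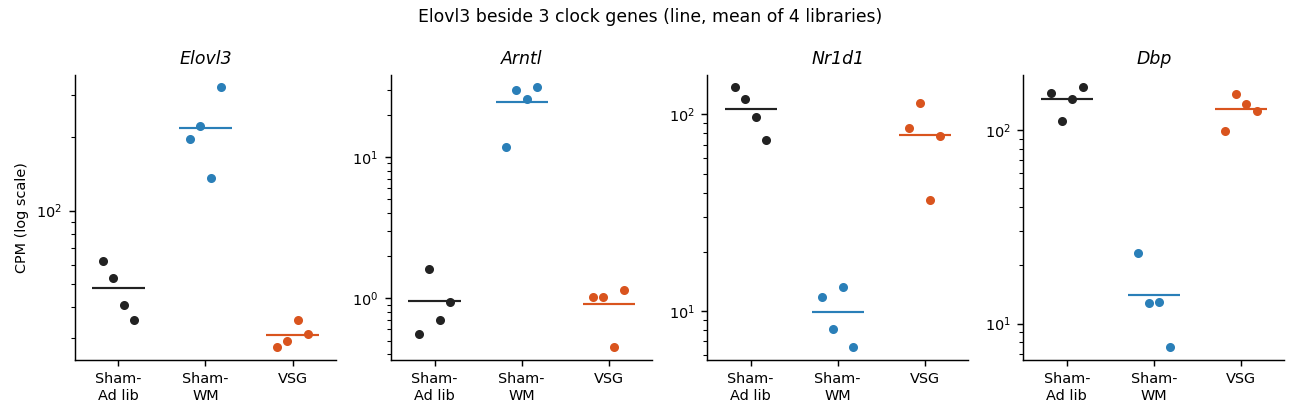
Elovl3 and the clock genes Arntl, Nr1d1 and Dbp in CPM (vertical log axes) in the 4 libraries of each group, with the group mean as a line. In Sham-WM, Elovl3 and Arntl lie above and Nr1d1 and Dbp below every other library; Dbp is at most 23.1 CPM there.

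The make-up of elongase RNA was described by summing its members per length. Summed over the 7 Elovl genes, elongase RNA came to 688 ± 86.8 CPM per kilobase in Sham-WM (mean ± SD, n = 4), to 427 ± 95.4 in Sham-Ad lib and to 247 ± 54.6 in VSG, with Sham-WM at 635 or more and the others at 528 or less. Elovl3 made up 5.70% ± 0.71 of this sum in Sham-Ad lib against 16.3% ± 6.36 in Sham-WM and 6.54% ± 1.60 in VSG. Elovl6 made up 4.255% ± 0.926, 10.6% ± 6.04 and 3.24% ± 0.083 in the same order, with Sham-WM (4.70% to 18.9%) overlapping Sham-Ad lib (3.33% to 5.30%). The share of Elovl2 was 53.6% ± 4.57, 38.3% ± 7.10 and 52.8% ± 2.89 in the same order, and the Sham-WM libraries, at 30.2% to 44.6%, lay below the rest. The share of Elovl5 was 33.3% ± 6.12, 33.0% ± 2.46 and 31.4% ± 0.78, and its groups overlapped. Elovl4, an elongase of retina and skin, had 0 counts in every library. These shares are given as a description, with no test.

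**Figure D5:**
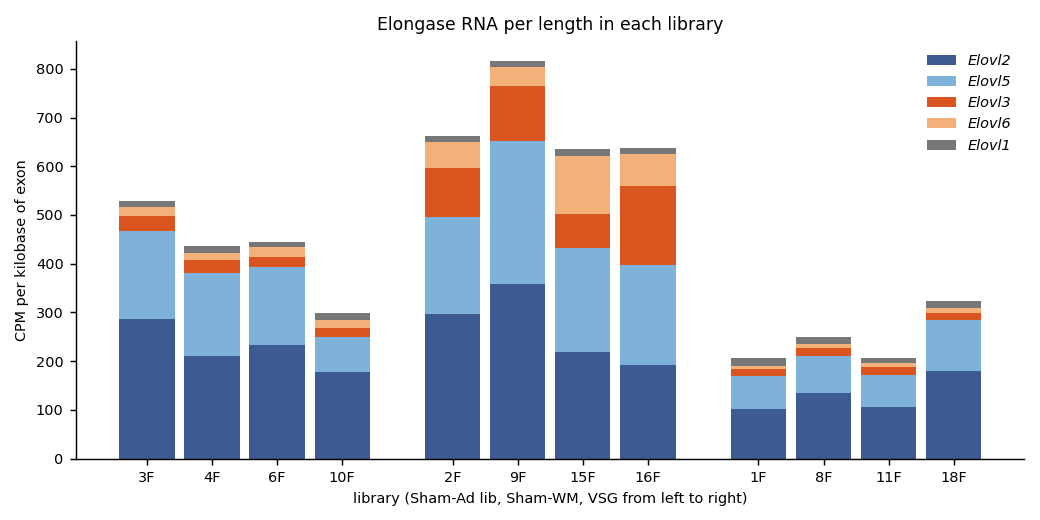
Summed CPM per kilobase of exon (vertical axis, from 0) of Elovl2, Elovl5, Elovl3, Elovl6 and Elovl1 in each of 12 libraries. Elovl4, at 0, and Elovl7, at most 0.153 CPM per kilobase, are not drawn. The Sham-WM bars are the tallest and the VSG bars, with the range 207 to 323 for the sum, mostly the shortest.

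Tecr (chr8:83571698-83607971, minus strand), the reductase that ends each turn of the elongation cycle, measured 185, 157, 151 and 177 CPM in Sham-Ad lib, 183, 231, 175 and 169 CPM in Sham-WM and 126, 141, 154 and 143 CPM in VSG. VSG and Sham-WM did not overlap, and VSG library 11F reached into the Sham-Ad lib range. Tecr was 1.34-fold lower in VSG than in Sham-WM (log2 fold change -0.43, SE 0.12, adjusted p = 0.0223, edgeR). Without Sham-WM library 9F its adjusted p was 0.0614, and without VSG library 1F it was 0.0651. Against Sham-Ad lib its log2 fold change in VSG was -0.25 (95% interval from -0.51 to 0.011).

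Hacd3 (chr9:64986983-65021693, minus strand), the dehydratase of the cycle, had 209 to 253 CPM in Sham-Ad lib, 178 to 205 CPM in Sham-WM and 172 to 245 CPM in VSG. VSG overlapped both sham groups, and all Sham-WM libraries lay below the Sham-Ad lib range. The log2 fold change was 0.10 in VSG against Sham-WM (95% interval from -0.15 to 0.36), -0.11 in VSG against Sham-Ad lib (from -0.37 to 0.15) and -0.21 in Sham-WM against Sham-Ad lib (from -0.47 to 0.042).

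The levels of genes of the polyunsaturated route were compared from library to library. As a description over 12 libraries that share their groups and depth, the Pearson correlation of log2 CPM was 0.973 between Fads1 and Elovl2, 0.971 between Fads1 and Fads2 and 0.966 between Fads2 and Elovl2; after each group's mean was removed it was 0.922, 0.918 and 0.948. For Elovl5 it was 0.864 with Fads1, 0.861 with Fads2 and 0.891 with Elovl2, and within groups 0.627, 0.739 and 0.732. The 3 genes most like Fads1 of all those tested were Elovl2, Fads2 and Sc5d (0.950), an enzyme of cholesterol synthesis, and those most like Fads2 were Fads1, Wbp2 (0.968) and Elovl2. Elovl5 was most like Spata5l1 (0.952), Arhgap24 (0.949) and Pex5 (0.946), Elovl3 like Slc35b1 (0.963) and Dock6 (0.958), and Tecr like Acss2 (0.949), Gcat (0.928) and Slc22a28 (0.922). Scd2 and Elovl1, the genes with the highest values in VSG library 1F, had a correlation of 0.888 within groups, and Ubash3b was among the 3 genes most like each (0.940 and 0.902). Fads6 was most like Pard3 (0.951), Hacd3 like Fhit (0.945) and Elovl1 like Cdca7 (0.928).

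Other genes that serve desaturation and elongation were counted from lists drawn up for each step, also with earlier results of these data known. Of 8 further family members tested out of 13, 3 were lower in VSG than in Sham-WM (Scd1, Elovl6 and Hsd17b12) and 1 was higher (Hacd4), with a median log2 fold change of -0.33 over the list. Hsd17b12, the ketoacyl reductase of the same cycle as Hacd3 and Tecr, had 133 to 155 CPM in VSG and 173 to 219 CPM in Sham-WM, a log2 fold change of -0.50 (SE 0.11, adjusted p = 0.00565, edgeR). In VSG against Sham-Ad lib 0 of the 8 were called, beside 0.467% of all genes called higher and 0.283% lower. Hsd17b12, Elovl6 and Scd1 lay at adjusted p of 0.0502, 0.0578 and 0.0872 (edgeR), with every VSG library below every Sham-Ad lib library. Hacd1 lay above without overlap (adjusted p = 0.0968). The paper reports Elovl6 and Scd as lower after VSG. In Sham-WM against Sham-Ad lib 1, Elovl6, was higher and 0 lower, beside 3.53% and 3.45% of all genes. The electron carriers of the desaturases gave 2 higher (Cyb5r1 and Por) and 1 lower (Cyb5b) of 6 in VSG against Sham-WM, shares to be read against 15.0% and 11.9% of all tested genes. Cyb5b, an outer mitochondrial cytochrome b5, was also the 1 of 6 called lower in VSG against Sham-Ad lib (301 ± 49.0 against 511 ± 69.1 CPM, adjusted p = 0.0435, edgeR), where 0.283% of all genes were called lower. Por was the 1 of 6 called lower in Sham-WM against Sham-Ad lib (log2 fold change -0.81, SE 0.19, adjusted p = 0.0212, edgeR). In that comparison 3.45% of all genes were called lower. In VSG against Sham-Ad lib, Por was not called (log2 fold change -0.22, SE 0.19, adjusted p = 0.488, edgeR). Cyb5a, the form of the endoplasmic reticulum, was not called in any comparison.

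Enzymes around these steps were counted in the same way for VSG against Sham-WM, where 11.9% of all tested genes were called lower and 15.0% higher. Of 9 acyl-CoA synthetase and binding genes tested, 4 were lower (Acsl1, Acsl3, Acsl4 and Acsl5) and 1 higher (Slc27a2), with a median log2 fold change of -0.34. Acsl4, which activates arachidonic acid, had 49.4 ± 12.8 CPM in VSG and 97.9 ± 9.47 CPM in Sham-WM (log2 fold change -0.99, SE 0.19, adjusted p = 0.00304, edgeR). Of 11 genes of peroxisomal beta-oxidation, which ends docosahexaenoic acid synthesis, 4 were lower and 1 higher, with a median of -0.31. Of 7 acyltransferases that put polyunsaturated chains into phospholipids, 1, Lpcat2, was higher and 0 were lower. In both comparisons with Sham-Ad lib, 0 genes of these 3 lists were called. Over all genes, 0.467% were called higher and 0.283% lower in VSG there, and 3.53% and 3.45% in Sham-WM. With shares this small, 0 calls do not show that these genes were alike in the groups.

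Of 13 regulators known to act on desaturase and elongase genes, 4 were lower in VSG than in Sham-WM (Insig1, Insig2, Srebf1 and Mlx) and 1 was higher (Nr1h2), beside the same shares over all genes. Srebf1, which encodes the sterol regulatory factor that drives fatty acid synthesis genes, had 295 ± 39.9 CPM in VSG, 527 ± 103.8 CPM in Sham-WM and 398 ± 46.7 CPM in Sham-Ad lib, a log2 fold change of -0.84 between VSG and Sham-WM (SE 0.16, adjusted p = 0.00314, edgeR). Insig2, which retains that factor in the endoplasmic reticulum, was 1 of 2 regulators higher in Sham-WM than in Sham-Ad lib, with Mlx (224 ± 43.2 against 85.5 ± 28.8 CPM for Insig2, adjusted p = 0.00792). Ppara, the receptor that fasting engages, had 94.8 ± 38.4 CPM in VSG and 184 ± 38.7 CPM in Sham-Ad lib and was not called (adjusted p = 0.0635). In VSG against Sham-Ad lib, 0 of the 13 were called, beside 0.467% of all genes called higher and 0.283% lower. The share of all genes called higher in Sham-WM against Sham-Ad lib was 3.53%.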

How the data were processed

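Directional libraries were prepared from poly(A) RNA. The authors aligned paired reads to mm10 with TopHat2 2.1.1 and counted them on genes with featureCounts. The deposited values are whole-number counts per Ensembl gene and library, without normalisation. The annotation release and the strand setting of the counting are not given in the sources used here. Without molecular identifiers, counts are not independent molecules.

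Of 46078 genes, 45229 matched GENCODE M21, used for symbols, mm10 positions and exon lengths. Replicates within a group were compared by chi-square per gene (at least 17.4) and Spearman's rho (at least 0.963), and none was a copy of another. Genes were filtered with filterByExpr (minimum count 10, minimum total 15) and tested with edgeR 4.0.16 (R 4.3.3, limma 3.58.1): TMM factors, the quasi-likelihood test and Benjamini-Hochberg adjustment over 13054 genes, in 1 fit of 12 libraries. Each library is a separate mouse. The study tested with DESeq2 and RUV factors; DESeq2 1.42.0 and RUVs and RUVr factors (k = 2), written out from their definitions, were run as alternatives, with other normalisations, filters, 2-group fits, grouping by the other label field and leaving out each library. The method was tested on simulated data.

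CPM values are TMM-normalised. Likeness used log2 CPM (prior count 2), and the genes named are the 10 genes, the 3 most like each, and called genes of the lists, with examples of each list. The 10 genes, lists and markers were chosen with earlier results of these data known. Of the genes most like Elovl3, 1 is not reported here. No amino acid sequences were used here.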

Additional observations from a re-analysis of the deposited data

Results flagged for a closer look

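The level of Elovl5 in Sham-WM library 9F was 1035 CPM, while the other 3 Sham-WM libraries lay between 706 and 753 CPM. The gap was 0.857 of the group's whole range, above Dixon's 95% critical value for 4 samples. Of 30 groups of 4 values examined for the 10 genes this was the 1 that stood apart, and chance gives about 1 in 20. Without that library the log2 fold change of Elovl5 in Sham-WM against Sham-Ad lib was 0.50 and its adjusted p 0.304 (edgeR).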

How the results depend on the processing

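Calls in VSG against Sham-Ad lib depended most on the method: 1 of the 10 genes was called by edgeR, 4 by DESeq2, 4 with no filter on low counts, 6 with 2 RUVr factors, and 0 with at least 10 counts in every library, with only the groups compared, with 2 RUVs factors and with groups from the other label field. Calls over all genes moved along: 98 of 13054 by edgeR, 1202 of 13054 by DESeq2 and 628 of 23091 with no filter. RUVr factors called 3034 of 13054 genes and RUVs factors 8, and the other settings named called 0. The changes in number are thus not particular to the 10 genes. Leaving out each library gave 0 to 4 calls, with 4 without VSG library 18F, where 1089 of 13287 genes were called. In Sham-WM against Sham-Ad lib, 2 genes, Scd2 and Elovl3, were called with RUVs or RUVr factors, and 0 under the other label field. Of all 13054 genes, the main fit called 912 there, RUVs factors 1724, RUVr factors 2188 and the other label field 0. In VSG against Sham-WM, 6 genes were called, 1 with RUVs factors and 0 under the other label field, and 5 or 6 without each library in turn. The main fit called 3509 of 13054 genes there. The number over all genes with RUVs factors is not given here, so that drop is not read as particular to the 10 genes. The cause of these changes was not tested.

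Directions that turned belonged to differences that were not called, apart from those under the other label field. With that field, the log2 fold changes in VSG against Sham-Ad lib were 0.15 for Fads1, 0.36 for Fads2, 0.079 for Fads6 and 0.32 for Elovl2; in Sham-WM against Sham-Ad lib they were 0.27 for Fads6 and -0.61 for Elovl3; and in VSG against Sham-WM Hacd3 was at -0.046. With RUVs factors, Elovl1 was at -0.0021 and Fads2 at -0.037 in the comparisons of VSG and Sham-WM with Sham-Ad lib, and Scd2, Elovl1 and Hacd3 at -0.38, -0.041 and -0.12 in VSG against Sham-WM. With no filter, Elovl1 in Sham-WM against Sham-Ad lib was at -0.0060. Leaving out each library, that value ran from -0.029 to 0.053, and that of Fads2 from -0.14 to 0.19.

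Over the 10 genes and 3 comparisons, settings other than leaving out a library left 230 values with their direction and side of the threshold, while 14 lost a call, 13 gained one and 13 turned; with a library left out the numbers were 338, 11, 5 and 6. Fads1, Fads2, Elovl2, Elovl3 and Elovl5 in VSG against Sham-WM, and Elovl3 in Sham-WM against Sham-Ad lib, were called in 12 of 12 fits with a library left out. No paired analysis was possible because the groups share no replicate numbers. Per kilobase, the longest transcript in place of all exons moved Tecr in Sham-Ad lib from 76.5 to 132 CPM per kilobase, Fads1 from 198 to 275, Fads6 from 28.8 to 38.8 and Elovl1 from 12.6 to 18.95. Scd2 rests on 58 to 192 counts per library, so its depth limits precision.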
